A study of Mus musculus with 38 samples.

Results

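The genes described here encode the mitochondrial respiratory chain and the ATP synthase that it drives. They were taken by symbol from the array annotation: every probe set naming 1 gene whose symbol starts with Nduf, Uqcr, Cox4 to Cox8 or Atp5, or is Sdha, Sdhb, Sdhc or Sdhd, unless its level lay below 7 on the log2 scale in all 10 groups. This gave 114 probe sets for 89 genes, of which 109 probe sets for 84 genes passed the brightness rule, out of 23410 probe sets with a gene name. The 5 left out as dim were Cox6b2, Cox7b2, Cox8b, Cox8c and Ndufa4l2, most of them testis, muscle or hypoxia forms. Just below the limit lay Cox8c, with a highest group mean of 6.96, and just above it Ndufaf6 (7.02) and Cox4i2 (7.22). Ndufaf6 passed only through dormant CD8bm1 and Cox4i2 only through the 5 activated groups, so each had to differ there and their calls support nothing. A further 6 rows that name a matching gene together with another symbol were not counted as members.

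RNA from 5 mouse CD8 T cell clones was hybridised to 38 Affymetrix arrays. Each clone was sampled dormant, and again once it had spent 14 h on plates coated with the anti-CD3 antibody 145-2c11 at 0.5 ug/ml, which triggers the T cell receptor. Clones sAg1 and sAg3 are CD8IL13+, named CD8γ13 in the series design, clones 8uvmo-2 and 8uvmo-3 are CD8IL13-, named Tc1 there, and CD8bm1 is an alloreactive CD8 clone. Dormant sAg1 and dormant sAg3 held 3 arrays and the other 8 groups 4 each, so 18 arrays were dormant and 20 activated. Each clone is a single line grown in RPMI with fetal bovine serum, and the labels do not say whether the arrays of a group came from separate cultures. The p-values below thus rest on array-to-array spread only, part of which may be technical.

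Respiratory chain complexes pass electrons from NADH and succinate to oxygen and pump protons across the inner mitochondrial membrane. Complex I (Nduf genes) and complex II (Sdh genes) take in electrons, complex III (Uqcr genes) hands them to cytochrome c, and complex IV (Cox genes) reduces oxygen. Complex V, the ATP synthase (Atp5 genes), lets protons flow back to make ATP. T cells that have been activated are known for raised glycolysis alongside continued respiration, and the subunits studied here are the nuclear-encoded part of that machinery.

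The members covered 33 probe sets for accessory subunits of complex I, 7 for its core subunits and 7 for its assembly factors. The 33 include Ndufa4, placed there by its name, though it is now known as a complex IV subunit. Complex II had 4, complex III 11, complex IV 12 and the ATP synthase 30. The last 5 were 2 for Cox7a2l, which joins complexes III and IV into supercomplexes, and 3 for tissue isoforms, namely Cox4i2, Cox6a2 and Cox7a1. Of the 84 genes, 17 had several probe sets, 42 in all. Their activation differences were furthest apart for Cox7b, at 0.05 and 0.51 on the log2 scale. Several families here have near-identical processed copies elsewhere in the genome, and what each probe set contributes from such copies was not tested. Where a gene had several probe sets, values are from the one with the highest mean level unless stated otherwise.

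Some genes of the ATP synthase make the same mature product. Atp5g1, Atp5g2 and Atp5g3 each encode subunit c, the proton-carrying ring of the enzyme, with different import sequences. They are shown because activation moved them apart, as described further on. The 250 bases before each start site (RefSeq, mouse GRCm38.p6, minus strand, chr11:96075632-96075881, chr15:102671048-102671297 and chr2:73911327-73911576) follow, with matches in capitals to CACGTG (the E-box), CGCATGCG (bound by NRF1) or TCAAGGTCA (bound by ERR alpha), on either strand.
Atp5g1: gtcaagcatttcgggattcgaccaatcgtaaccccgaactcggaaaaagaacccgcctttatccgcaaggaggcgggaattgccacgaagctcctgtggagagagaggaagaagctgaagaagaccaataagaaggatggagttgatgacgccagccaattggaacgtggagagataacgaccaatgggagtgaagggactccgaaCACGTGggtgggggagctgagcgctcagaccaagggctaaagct
Atp5g2: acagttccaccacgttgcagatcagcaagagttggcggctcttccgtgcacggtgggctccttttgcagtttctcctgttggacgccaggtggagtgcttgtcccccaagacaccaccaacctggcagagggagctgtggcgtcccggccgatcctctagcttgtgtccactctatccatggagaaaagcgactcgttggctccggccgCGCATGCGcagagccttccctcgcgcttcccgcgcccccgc
Atp5g3: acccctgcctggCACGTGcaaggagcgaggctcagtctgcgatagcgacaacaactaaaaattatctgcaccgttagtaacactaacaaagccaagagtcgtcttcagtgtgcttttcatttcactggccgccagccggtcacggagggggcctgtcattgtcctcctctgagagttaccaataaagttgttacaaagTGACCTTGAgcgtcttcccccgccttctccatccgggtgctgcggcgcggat
The Atp5g1 window held an E-box, the Atp5g2 window an NRF1 word, and the Atp5g3 window an E-box and an ERR alpha word. Windows of this kind, from 250 bases before to 50 after the start, were found for 70 of the 84 member genes. The E-box occurred in 6 of the 70 (8.57%) against 8.09% of the 27025 genes in the RefSeq table, so its share among members was near that of all genes. The NRF1 word occurred in 11 of 70 (15.7%) against 2.07%, among them Uqcrc1, Cox6a1 and Ndufa8. The word AAGATGGC, bound by YY1, occurred in 10 of 70 (14.3%) against 3.19%, among them Ndufs4 and Ndufb8. CCGGAAGT, bound by GABPA and other ETS factors, occurred in 5 of 70 (7.14%) against 4.31%, and TCAAGGTCA in 2 (2.86%), Atp5g3 and Sdhd, against 126 of all 27025 genes. Both strands were searched, and none of these words contains another. A match is a string of letters, and no binding was measured.

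Array quality touched the members as follows. Arrays of 1 group correlated at 0.9858 to 0.9981 over all probe sets. Dormant 8uvmo-2 fell into 2 pairs of arrays, replicates 1 and 3 and replicates 2 and 4, which correlated at 0.9974 and 0.9973 within and at no more than 0.9894 across. Of 10 T cell markers, 9 or 10 lay at or above 7 in every group, while 0 of 6 B cell markers and 1 to 3 of 14 macrophage and dendritic markers did, among them Itgax, Cd68 and Lyz2. The summed macrophage and dendritic level, as a log2 value, ran from 10.00 to 12.60 over arrays, highest in dormant 8uvmo-2. Of 8 neutrophil markers 0 did, except Ly6g at 7.76 in dormant 8uvmo-2, where their summed level ran from 8.66 to 10.24. Of 10 fibroblast and epithelial markers 2 to 6 did, and 7 were called higher on activation, where 35% of all probe sets were. Their summed level, as a log2 value, ran from 9.56 to 10.18 over dormant and from 10.12 to 11.25 over activated arrays. The part of these markers in the members' values was not tested. The median of all tested probe sets was 6.58 to 6.70 on dormant and 7.01 to 7.09 on activated arrays. Fewer cells of a type and less RNA per cell cannot be told apart in such bulk RNA.

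Most respiratory chain genes moved little in 14 h on anti-CD3, and a few moved far. Of the 109 members 8 probe sets for 6 genes rose, or 7 without Cox4i2, where 35% of all probe sets did, and 8 for 6 genes fell, where 6.13% did. A member was called at a limma adjusted p under 0.05 (Benjamini-Hochberg over all 23410), a log2 difference of at least 0.5 (1.41-fold) and the same direction in all 5 clones. The median log2 difference was 0.00 over members and 0.352 over all probe sets. The 5617 bright probe sets, those with a mean level of at least 9 as most members have, had a median of -0.045. Of these, 12.9% were called higher and 13.6% lower.

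Because activated arrays lay higher as a whole, each member was also fitted with array medians set equal (centring) and after quantile normalization. Centring moved the members down with all bright probe sets: 2 were then called higher against 6.06% of all probe sets, and 47 lower against 20%. Among bright probe sets 3.26% were then called higher and 44.4% lower, near the members' 1.83% and 43.1%. After quantile normalization the member counts were 7 and 8. Calls in the same direction under all 3 scalings numbered 2 higher (background 5.53%) and 8 lower (background 6.04%). The 2 were both probe sets of Atp5g1. The 8 were both of Cox7a2l, both of Cox6c, and those of Uqcrh, Ndufb5, Ndufa6 and Atp5c1.

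**Figure D1:**
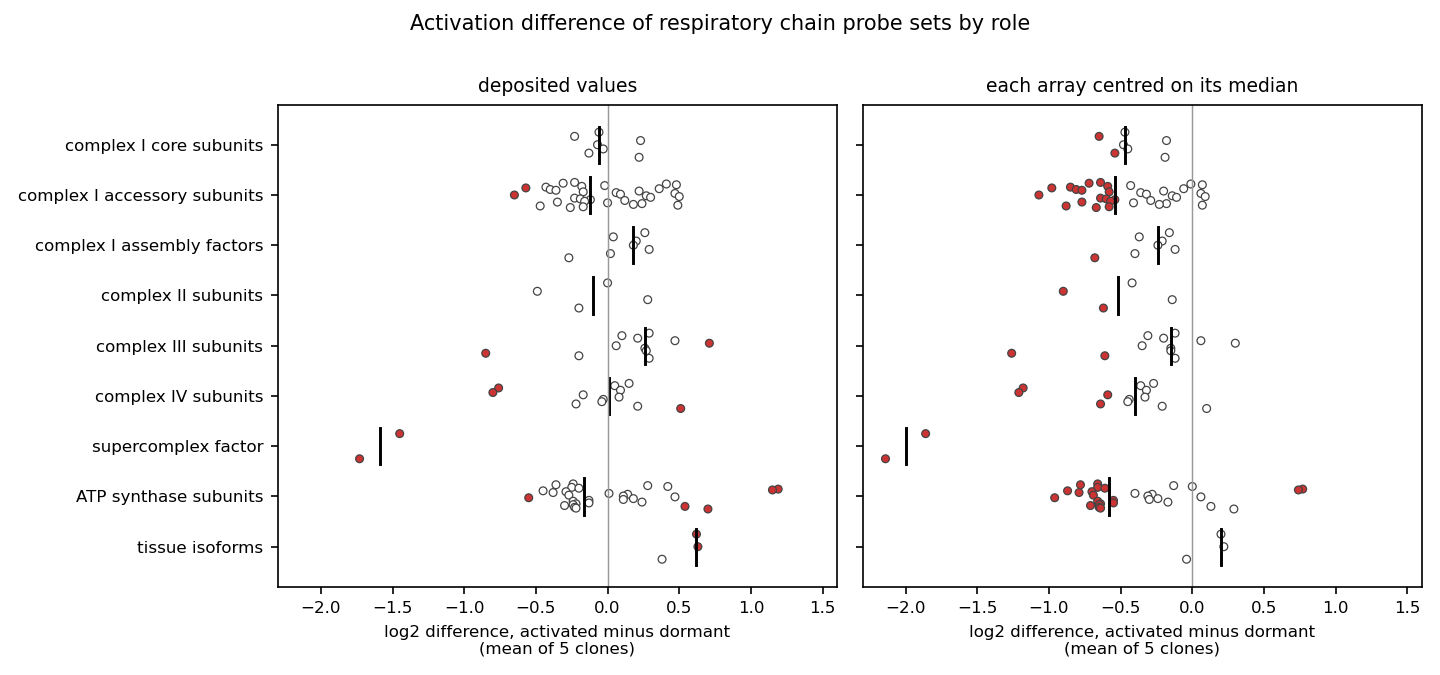
Log2 difference between activated and dormant arrays (mean of 5 clones) for the 109 probe sets, by role, on the deposited values (left) and after centring (right). Each point is 1 probe set, red where called, and the black bar is the median of the group. Cox7a2l lies at the far left in both panels (-1.45 and -1.73 as deposited), and only the 2 Atp5g1 probe sets are called higher in both.

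Cox7a2l, the supercomplex factor, showed the largest decrease of any member. Its 18 dormant arrays ran from 11.68 to 12.24 (median 11.97) and its 20 activated arrays from 9.90 to 11.20 (median 10.46), so the states did not overlap. Cox7a2l fell by 1.45 (± 0.038, SE of the log2 difference), a 2.73-fold drop, with a limma adjusted p of 1.06e-26. Its second probe set fell by 1.73 (± 0.046). The log2 difference was -1.59 in sAg1, -1.07 in sAg3, -1.64 for 8uvmo-2, -1.96 for 8uvmo-3 and -0.98 for CD8bm1. Among activated arrays the 4 of CD8bm1 were highest, at 10.87 to 11.20.

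In complex III, 1 of 11 probe sets fell and 1 rose, and in complex IV 2 of 12 fell and 1 rose. Uqcrh, the hinge protein that helps cytochrome c meet complex III, ran from 11.63 to 12.27 on dormant and from 10.87 to 11.39 on activated arrays, without overlap. Uqcrh fell by 0.85 (± 0.036; limma adjusted p = 2.92e-21), least in CD8bm1 (-0.70). Cox6c, a small nuclear subunit of complex IV, ran from 12.40 to 13.38 and from 11.68 to 12.41. Those ranges meet because 8uvmo-3 lay above the other clones in both states, and within each clone the states were apart. Cox6c fell by 0.76 (± 0.021; limma adjusted p = 2.33e-26), and its other probe set by 0.80 (± 0.024).

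**Figure D2:**
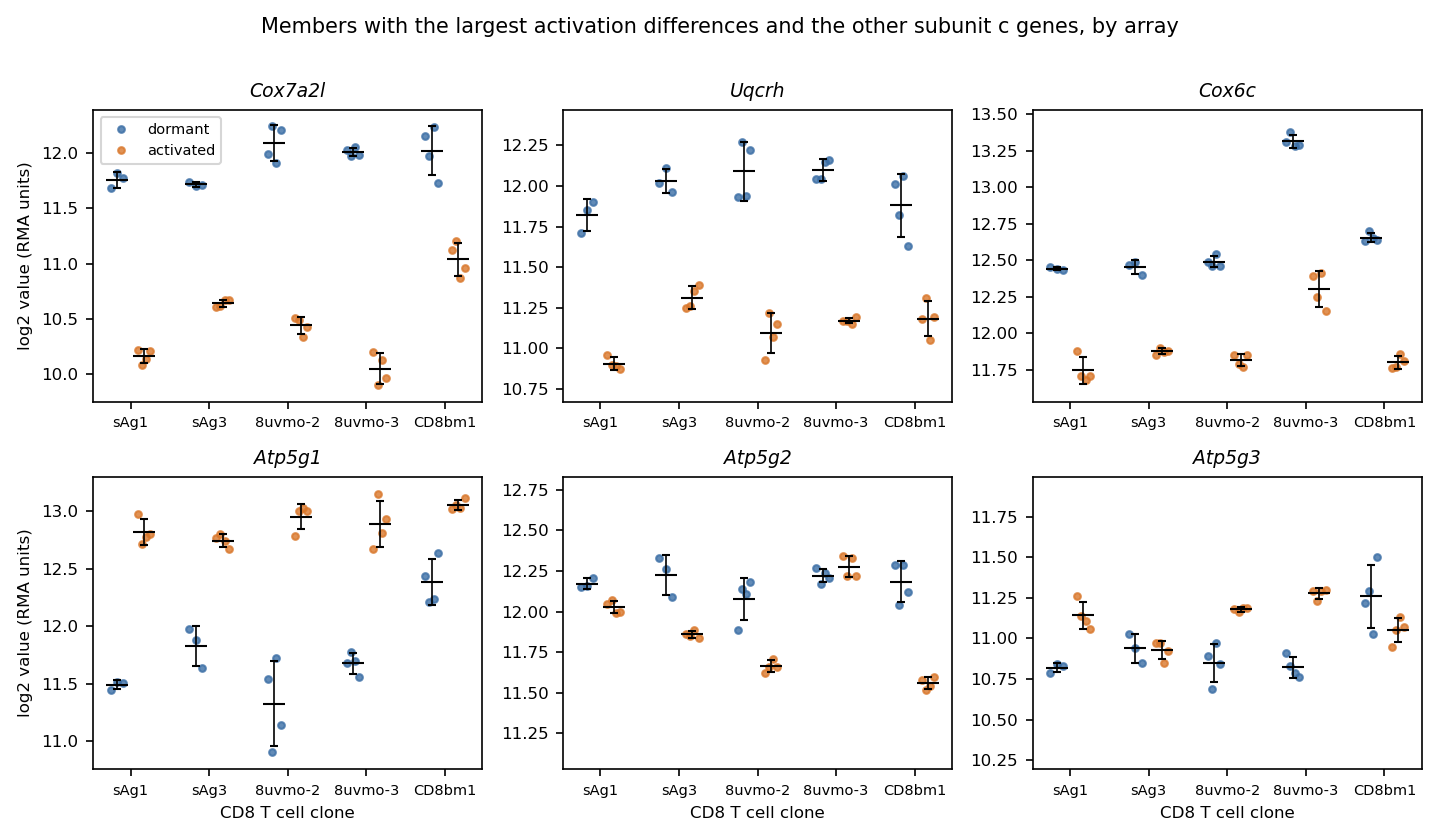
Log2 values by array for Cox7a2l, Uqcrh, Cox6c and the 3 subunit c genes, by clone (dormant blue, activated orange). Black bars are the group mean ± SD of 3 or 4 arrays, and y axes differ between panels. Cox7a2l, Uqcrh and Cox6c are lower and Atp5g1 higher in the activated arrays of every clone, while Atp5g3 goes up in 3 clones and down or level in the others.

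Atp5g1 showed the largest increase. Dormant arrays ran from 10.91 to 12.64 (median 11.69) and activated ones from 12.67 to 13.15 (median 12.87). The 2 ranges came close only through dormant CD8bm1, whose highest array was 12.64. Atp5g1 rose by 1.15 ± 0.053 (limma adjusted p = 3.06e-20), 2.22-fold, and its other probe set by 1.19 ± 0.049. Per clone the log2 differences were 1.33 for sAg1, 0.91 for sAg3, 1.62 for 8uvmo-2, 1.21 for 8uvmo-3 and 0.67 for CD8bm1. After centring the mean was 0.74, while sAg3 alone had 0.46 and CD8bm1 alone 0.22, neither of them called. The other probe set, at 0.99 in sAg3, was still called there after centring (0.54), but not in CD8bm1.

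The other subunit c genes did not follow it. Atp5g2 was at 11.89 to 12.33 when dormant and 11.52 to 12.34 when activated, with a difference of -0.30 ± 0.025 and of -0.27 and -0.38 in its other probe sets. It was not called, and in 8uvmo-3 its difference was 0.05. Atp5g3 differed by 0.18 ± 0.031 on average, by 0.32, 0.33 and 0.46 in sAg1, 8uvmo-2 and 8uvmo-3 and by -0.01 and -0.21 in sAg3 and CD8bm1. After centring the Atp5g3 mean was -0.24, so its direction depends on the scaling. All 3 genes were well expressed in both states.

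Other ATP synthase subunits also went both ways. Atp5c1, the gamma subunit of the rotating stalk, ran from 12.17 to 12.52 dormant and from 11.56 to 11.86 activated. It fell by 0.55 (± 0.021; limma adjusted p = 4.05e-22). Atp5md, a small membrane subunit also called DAPIT, ran from 11.09 to 11.89 and then from 11.88 to 12.40. Its log2 difference was 0.70 ± 0.040 as deposited and 0.29 after centring, where it was no longer called. The catalytic beta subunit Atp5b differed by 0.42 ± 0.026, and by 0.00 after centring. Atp5a1, the alpha subunit, differed by 0.11 ± 0.028, and by -0.31 after centring. The 6 probe sets of Atp5l, a membrane subunit, lay between -0.25 and -0.22.

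Among complex I genes, 2 of 33 accessory probe sets fell and 0 rose, and of the 7 core and 7 assembly probe sets none was called. At an adjusted p under 0.05 without a minimum difference or a clone condition, limma passed 97 of all 109 members. The share of all probe sets passing that rule is not given here, so the count is no result about members in particular. Ndufb5, an accessory membrane arm subunit, ran from 8.93 to 10.45 on dormant and 8.39 to 9.69 on activated arrays, a wide overlap made by clones that differ. Ndufb5 fell by 0.65 (± 0.028; limma adjusted p = 6.43e-21), with differences from -0.45 in sAg1 to -1.03 in CD8bm1. Ndufa6, an accessory subunit of the matrix arm, fell by 0.57 (± 0.060). The core subunits Ndufs1, Ndufv1 and Ndufs7, which carry iron-sulfur clusters or the flavin, differed by -0.06 ± 0.038, -0.13 ± 0.033 and -0.23 ± 0.028.

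Complex II, III and IV otherwise showed small values. Sdha, the flavoprotein of succinate dehydrogenase, differed by -0.49 ± 0.030, just under the minimum, and Sdhb, its iron-sulfur subunit, by 0.28 ± 0.042 (-0.14 after centring). Uqcrq, a small complex III subunit, ran from 8.85 to 9.82 and then from 9.78 to 10.09. Its difference was 0.71 ± 0.036 as deposited and 0.30 after centring, where the call ended. Uqcrc1, a core complex III protein, differed by 0.29 ± 0.048 (-0.12 after centring) and Uqcrfs1, the Rieske iron-sulfur protein, by 0.06 ± 0.029 (-0.35 after centring). Cox5a and Cox4i1, complex IV subunits around the catalytic core, differed by -0.22 ± 0.028 and -0.04 ± 0.031. Cox7b, another small complex IV subunit, differed by 0.51 ± 0.026 in the called probe set and by 0.10 there after centring.

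Tissue isoforms sat near the brightness limit. Cox4i2, the lung and hypoxia form of subunit IV, was at 6.39 to 6.62 dormant and 6.96 to 7.32 activated, and Cox7a1, the muscle and heart form, at 6.07 to 8.21 and 6.75 to 8.30. On deposited values they differed by 0.62 ± 0.025 and 0.63 ± 0.047 and on centred ones, where neither was called, by 0.20 and 0.22. Every dormant group mean of Cox4i2 was below 7, so it is a member only because of the state in which it is high. The Cox7a1 call also ended without dormant 8uvmo-2 replicate 1 (0.61) and without activated sAg3 replicate 3 or 4 (0.62), since the clones then no longer all differed in 1 direction. Dim probe sets as a whole rose with activation, as the medians above show. Cox6a2, the muscle form of subunit VIa, differed by 0.38 ± 0.048 (-0.04 after centring). Their common counterparts Cox6a1, Cox6b1, Cox7a2, Cox8a and Ndufa4 differed by 0.08 ± 0.034, -0.03 ± 0.022, 0.21 ± 0.037, -0.17 ± 0.028 and -0.12 ± 0.057. Ndufa4, named for complex I, is now known as a complex IV subunit. Centring put all 5 of these below 0.

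Around the chain, other mitochondrial genes were read from lists, to be set against the 35% of all probe sets called higher and the 6.13% called lower. Among 9 measured electron carriers 3 rose, a share near that background: Gpd2, the glycerol phosphate dehydrogenase, by 1.54 ± 0.053, cytochrome c (Cycs) by 1.04 ± 0.038 and Sqor by 0.85 ± 0.031. Gpd2 and Cycs were called under all 3 scalings and Sqor was not. Of 41 measured assembly factors outside the symbol rule 5 rose and 3 fell, the latter Cmc1 (-1.11 ± 0.051), Surf1 (-1.10 ± 0.045), both complex IV factors, and Higd1a (-0.93 ± 0.086). Of 77 mitochondrial ribosomal proteins 23 rose and 0 fell, and 1 rose under all 3 scalings. That share of rises is smaller than over all probe sets and larger than the 12.9% of bright ones. The list's median lay at 8.75 to 9.37 over arrays, near the bright limit of 9. Pprc1 and Ppargc1a, coactivators of mitochondrial genes, differed by 1.05 ± 0.047 and -0.78 ± 0.039. The 2 mitochondrially encoded transcripts measured, COX2 and ND3, differed by -0.19 ± 0.021 and -0.29 ± 0.034, and neither was called. Glycolytic genes numbered 1 of 16 higher.

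Calls were also made within each clone. These carried no condition on the other clones, so their counts are not on the same footing as those over all clones. In sAg1, 25 of 109 rose (background 38.1%) and 6 fell (9.6%), in sAg3 5 rose (34%) and 6 fell (4.86%), in 8uvmo-2 16 rose (39.4%) and 12 fell (10.8%), and in 8uvmo-3 15 rose (38.6%) and 9 fell (10%). In CD8bm1, 4 rose (36.7%) and 29 fell (8.54%), and the difference from the other clones is tested further on. Bright probe sets gave 21.6% higher and 18.8% lower in sAg1 and 7.96% and 9.92% in sAg3. They gave 20.1% and 20.5% in 8uvmo-2, 19.1% and 18.6% in 8uvmo-3, and 12.4% and 16.5% in CD8bm1. The clones' member medians were 0.115, 0.022, 0.037, 0.065 and -0.28 in the same order. Of the 109, 25 were higher in all 5 clones, 31 lower in all 5 and 53 mixed. Among bright probe sets 24.2% were higher and 31.5% lower in all 5, and among all tested probe sets 58% and 12.8%. After centring the medians over members were -0.204, -0.424, -0.377, -0.367 and -0.735, so the sign in the first 4 clones depends on the scaling. Without dormant 8uvmo-2 replicates 1 and 3 the calls in that clone were 25 higher and 13 lower with a median of 0.11, and without replicates 2 and 4 they were 11 and 14 with a median of -0.02.

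Several genes were called in single clones and, apart from Cox7a1, not over all clones. Ndufb6, an accessory complex I subunit, rose by 0.94 ± 0.11 in sAg1, 0.69 ± 0.098 in 8uvmo-2 and 0.79 ± 0.098 in 8uvmo-3. Ndufb8, another one, rose by 0.58 ± 0.12 in sAg3 and 0.78 ± 0.12 in sAg1. Cox7a1 rose by 1.28 ± 0.11 in sAg1 and 0.80 ± 0.10 in 8uvmo-3. Ndufc1 rose by 0.73 ± 0.10 in 8uvmo-2 and Ndufv3 fell there by 0.75 (± 0.11), both complex I subunits, though without dormant 8uvmo-2 replicates 2 and 4 the Ndufv3 call ended (-0.49). Atp5h, a peripheral stalk subunit, fell there by 0.66 (± 0.068), and Ndufa13, a complex I subunit, fell by 0.58 (± 0.064) in 8uvmo-3. After centring, of these only the Ndufb6 and Cox7a1 rises in sAg1 and the falls were still called.

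Dormant CD8bm1 stood apart with higher respiratory chain levels. The median over the 109 members was 10.84, 10.92, 10.85 and 10.94 on its 4 arrays and 10.33 to 10.66 on the 14 dormant arrays of the other clones, so the groups did not overlap. After activation the CD8bm1 arrays were at 10.61 to 10.69 and the other clones' activated arrays at 10.41 to 10.67. Against the mean of the other 4 dormant clones, 27 probe sets for 25 genes were higher (background 8.14%, or 11.9% of bright probe sets) and 1 was lower (7.05%). Without Ndufaf6 the count was 26. Of the 109, 100 lay above that mean, against 52% of bright probe sets. The median log2 difference of members was 0.336, against 0.002 for all probe sets and 0.017 for bright ones. Under all 3 scalings 25 were higher, or 24 without Ndufaf6 (7.8% of all probe sets), and 1 was lower (5.72%). Dormant CD8bm1 was the highest of the 5 dormant clones for 72 of 109 members (66.1%), against 26.6% of bright probe sets.

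**Figure D3:**
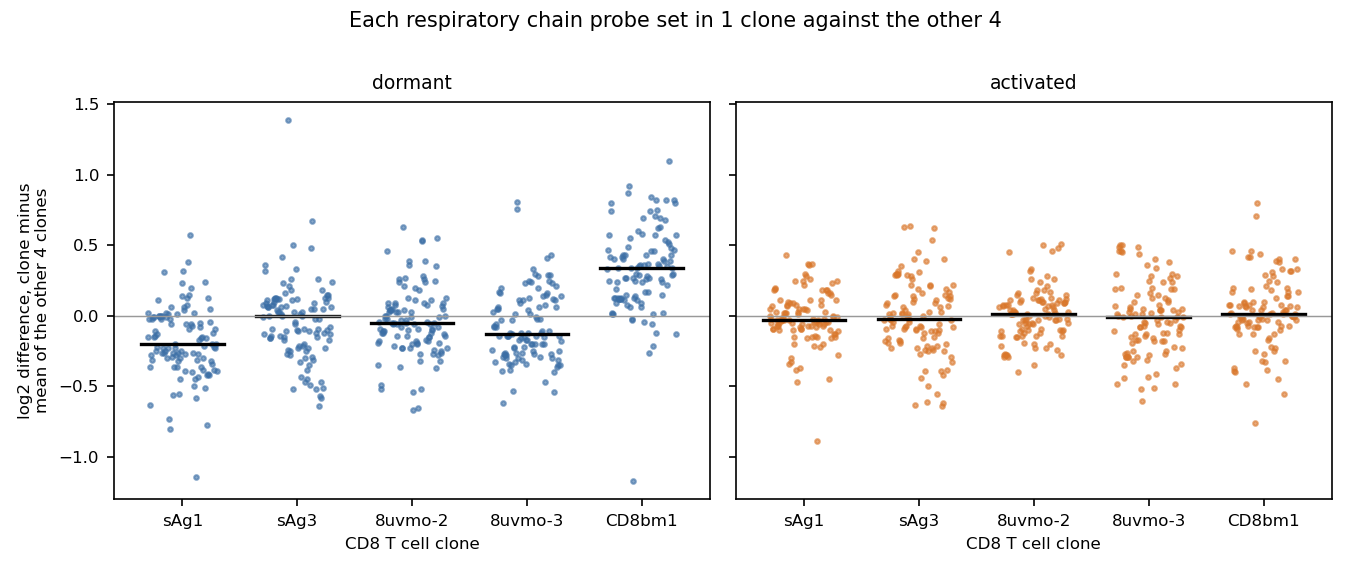
Log2 difference of each of the 109 probe sets in 1 clone from the mean of the other 4 clones, in the dormant (left) and activated (right) state. Points are probe sets and black bars their median. The dormant CD8bm1 bar lies at 0.34 and the dormant sAg1 bar at -0.20, while all activated bars lie between -0.03 and 0.01.

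Calls came from every complex. Of complex II, which links the citric acid cycle to the chain, 3 of 4 probe sets were higher. Sdhc, its membrane anchor, was at 11.52, 11.10, 11.15 and 11.32 on the CD8bm1 arrays and at 9.92 to 10.47 (median 10.19) on the 14 others, a difference of 1.10 ± 0.056 (limma adjusted p = 5.08e-18). Sdhb (0.52 ± 0.072) and Sdhd (0.51 ± 0.045) were higher by less, and Sdha differed by 0.22 ± 0.053 and was not called. The calls of Sdhb and Sdhd ended after quantile normalization, at 0.50 and 0.48.

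Of complex I core subunits, 4 of 7 probe sets were higher. Ndufv2, an iron-sulfur subunit of the NADH-oxidising tip, was at 11.55, 11.67, 11.55 and 11.74 against 10.52 to 11.37, a difference of 0.82 ± 0.043. Ndufv1, the flavin subunit, differed by 0.68 ± 0.058, Ndufs1 by 0.69 ± 0.065 and Ndufs8 by 0.54 ± 0.088, while Ndufs7 differed by 0.39 ± 0.048 and was not called. Accessory subunits followed for 9 of 33 probe sets, led by Ndufb6 (0.82 ± 0.079), Ndufb8 (0.75 ± 0.092) and Ndufb5 (0.71 ± 0.049). Of 7 assembly factors 2, Ndufaf6 (0.84 ± 0.12) and Ndufaf5 (0.74 ± 0.088), were higher, both near the limit of 7. Ndufaf6 had a mean under 7 in the 9 other groups and is a member only through this one, so its count here is fixed by the brightness rule.

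In complexes III and IV, 3 of 11 and 3 of 12 probe sets were higher. In the ATP synthase 3 of 30 were, a share near that of all and of bright probe sets. Uqcrc1 was at 11.24, 11.38, 10.97 and 11.70 against 10.25 to 10.75, a difference of 0.82 ± 0.084. Uqcrfs1 was at 9.97 to 10.13 against 9.06 to 9.44 (0.80 ± 0.050). Cox5b, a zinc-binding subunit of complex IV, was at 11.81 to 12.00 against 10.54 to 11.53, with a difference of 0.87 ± 0.048 and 0.92 ± 0.046 in its 2 probe sets. Cox5a (0.49 ± 0.048) and Cox4i1 (0.15 ± 0.053) were not called. The ATP synthase calls were both probe sets of Atp5g1 (0.80 ± 0.092 and 0.74 ± 0.086) and Atp5d (0.57 ± 0.057), while Atp5b and Atp5a1 differed by 0.47 ± 0.045 and 0.33 ± 0.048. The lower member was Cox7a1, at 6.07 to 6.18 in dormant CD8bm1, with a difference of -1.17 ± 0.082. Its level there was under 7, near background, so the size of that difference is not firm.

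**Figure D4:**
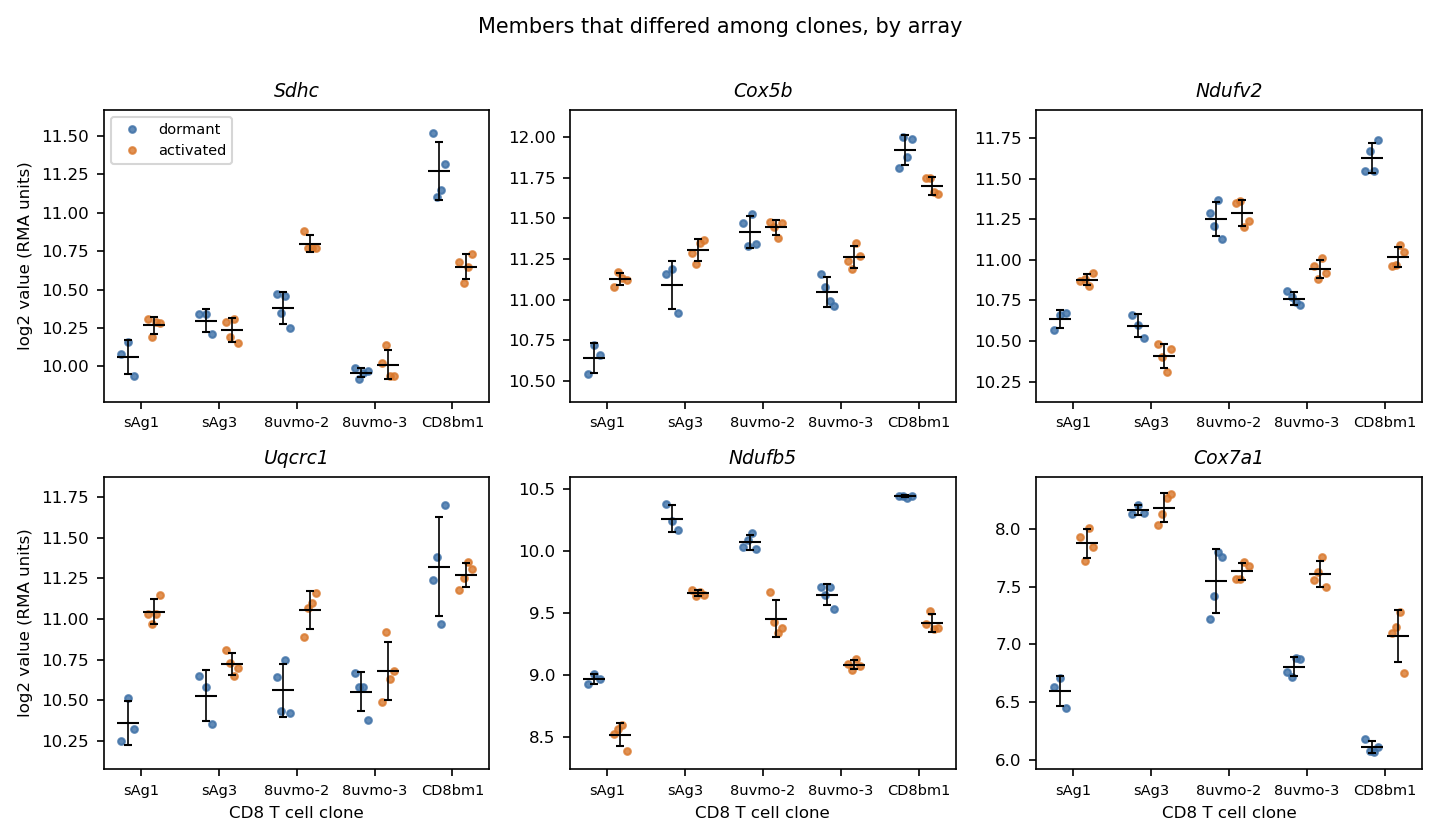
Log2 values by array for 6 members that differed among clones, dormant in blue and activated in orange. Bars are group means ± SD of 3 or 4 arrays, and y axes differ between panels. Sdhc, Cox5b, Ndufv2, Uqcrc1 and Ndufb5 are highest in dormant CD8bm1 or level with the highest, and Cox7a1 is lowest there.

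Other gene lists were read beside this, to be set against the 8.14% of all probe sets called higher and the 7.05% called lower. In dormant CD8bm1, 8 of 18 citric acid cycle genes were higher, among them Fh1 (1.00 ± 0.093) and Suclg2 (0.82 ± 0.091). Carriers of electrons followed with 4 of 9, including Cycs (0.81 ± 0.066) and Cyc1 (0.73 ± 0.078), and 14 of 77 mitochondrial ribosomal proteins were higher and 2 lower. The 34 constitutive proteasome subunits gave 0 calls. Lonp1, a mitochondrial protease, differed by 1.58 ± 0.10, Hif1a by -1.21 ± 0.045 and Ppargc1a by -0.73 ± 0.068. Glycolysis gave 8 of 16 higher, led by Aldoc at 4.40 ± 0.25. COX2 differed by -0.09 ± 0.037.

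Cell cycle genes also differed between the dormant groups. Of 30 measured, 23 were higher in dormant CD8bm1 (background 8.14%), led by Bub1 (2.65 ± 0.44) and Ccna2 (2.23 ± 0.40). The median of that list was 9.48, 10.46, 9.70 and 10.94 on the 4 CD8bm1 arrays and 7.32 to 10.88 on the 14 others. The member medians of those 4 arrays were 10.84, 10.92, 10.85 and 10.94, higher on the 2 arrays where the list was higher. In dormant 8uvmo-2 the list stood at 10.83, 8.88, 10.88 and 8.26 and the member median at 10.47, 10.48, 10.64 and 10.47. The count of called members was 29 without dormant 8uvmo-2 replicates 1 and 3 and 26 without replicates 2 and 4. The part of the cell cycle state in the result was not tested.

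After activation fewer members set CD8bm1 apart. Its activated arrays differed from the other clones in 2 probe sets higher (background 4.28%) and 2 lower (4.58%). The higher ones were both of Cox7a2l (0.71 ± 0.065 and 0.80 ± 0.079), at 10.87 to 11.20 on the CD8bm1 arrays against 9.90 to 10.67. The lower ones were Cox7a1 (-0.76 ± 0.080) and Ndufs4, an accessory complex I subunit, at 9.05 to 9.23 against 9.40 to 10.03 (-0.55 ± 0.059). Within CD8bm1, 26 members fell under all 3 scalings (8.17% of all probe sets) and 1 rose (5.31%). Besides Cox7a2l, the largest falls were those of Ndufb5 (-1.03 ± 0.061), Cox6c (-0.86 ± 0.045), Ndufa6 (-0.80 ± 0.13) and Ndufa4 (-0.80 ± 0.12), and the rise was that of Cox7a1 (0.96 ± 0.10). That rise starts from 6.07 to 6.18, near background, so its size is not firm.

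The difference in activation between CD8bm1 and the mean of the other 4 clones was fitted as a contrast added after the dormant values had been seen. It shares its dormant and activated arrays with the comparisons above. On this contrast 2 members were higher in CD8bm1 (background 4.4%) and 14 lower (5.37%). Under all 3 scalings 2 were higher and 13 lower, against 3.5% and 4.6% of all probe sets. Without Ndufaf6 13 were lower, 12 of them under all 3 scalings. Ndufb6 had a difference of -0.85 ± 0.11: it went from 10.44 to 10.99 on dormant CD8bm1 arrays to 10.51 to 10.66 on activated ones, and rose in 3 of the other clones. Ndufa4 (-0.84 ± 0.14), Sdhc (-0.78 ± 0.079) and Ndufs4 (-0.70 ± 0.084) followed. Ndufaf6 had -0.82 ± 0.16, which rests on the 1 group that made it a member. Cox7a2l, which fell less in CD8bm1 than elsewhere, had a difference of 0.59 ± 0.093. On this contrast 5 of 30 cell cycle genes and 7 of 16 glycolytic genes were lower too. The count of 16 became 25 without dormant CD8bm1 replicate 3, and the Cox7a2l call ended (0.49) without its replicate 4.

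Between IL13+ and IL13-negative clones few members were called. In the dormant state 0 of 109 members were higher in sAg1 and sAg3 (background 2.96%) and 2 were lower (5.16%). Limma passed 65 members at an adjusted and 69 at an unadjusted p under 0.05, with no share of all probe sets to set beside them. Most of these missed the minimum difference or the clone condition. Ndufs8, a core iron-sulfur subunit of complex I, was at 9.59 to 9.93 (median 9.84) on the 6 dormant IL13+ arrays and at 10.17 to 10.81 (median 10.47) on the 8 IL13-negative ones, without overlap. The Ndufs8 difference was -0.65 ± 0.083. Ndufb3, an accessory subunit, was at 7.69 to 7.99 against 8.16 to 8.70 (-0.52 ± 0.067), and its call ended after quantile normalization (-0.46) and without dormant 8uvmo-2 replicates 2 and 4 (-0.50). The count was 1 without dormant sAg3 replicate 2, and 0 when the 4 clone means were taken as the replicates. The median over members was 0.007. With 2 clones a side, clone and phenotype cannot be told apart.

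In the activated state 0 members were called in either direction (background 2.47% higher, 2.72% lower). Limma passed 48 of them at an adjusted and 59 at an unadjusted p under 0.05. Shares of all probe sets passing on p alone are not given, here or for the next comparison. The difference in activation between the phenotypes likewise gave 0 calls (background 3.72% and 2.21%), with 23 at an adjusted and 40 at an unadjusted p under 0.05. Nearest to the minimum was Cox7a2l, at 0.47 ± 0.086 and 0.49 ± 0.10 in its 2 probe sets. Both were called after centring (0.51 and 0.53), where 4.38% of all probe sets were higher. This comparison gave 1 call with the replicate number as a block. It also gave 1 in 13 fits that left out a single array: dormant sAg1 replicate 2 or 3, sAg3 replicate 2, 8uvmo-2 replicate 3 or 8uvmo-3 replicate 2, and activated sAg1 replicate 4, sAg3 replicate 1 or 2, 8uvmo-2 replicate 1, 2 or 4, or 8uvmo-3 replicate 1 or 3. The activated comparison gave 1 without activated 8uvmo-3 replicate 2. Within the IL13+ pair, dormant sAg1 had the lowest level of the 10 groups for 31 of 109 members (28.4%, against 12.4% of bright probe sets) and dormant sAg3 for 4. The cell cycle list stood at 7.32 to 7.97 on the dormant sAg1 arrays and at 8.21 to 9.14 on those of sAg3. Lyz2, a macrophage marker, had its highest mean, 9.26, in dormant sAg1. The summed macrophage and dendritic level went the other way, at 10.62 to 11.28 in dormant sAg1 and 11.77 to 11.79 in dormant sAg3. The part of the cell cycle list or of these markers in the low sAg1 levels was not tested.

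Differences among all 5 clones were tested with a limma F-test, calling an adjusted p under 0.05 with a range over clone means of at least 1. In the dormant state 11 members were called, where 20.7% of all probe sets were, and in the activated state 3 (background 13.2%). Dormant ranges were widest for Cox7a1 (2.05), Ndufb5 (1.47), Cox5b (1.38 and 1.28) and Sdhc (1.31). The low end for Cox7a1 is dormant CD8bm1 at 6.11, near background, so its range is not firm. The remaining dormant calls were Ndufb6 (1.12), Ndufaf6 (1.09, at or under 7.02 in every group), Ndufv3 (1.06), Atp5g1 (1.05), Ndufv2 (1.03) and Ndufv1 (1.00). Activated calls were Ndufb5 (1.14), Cox7a2l (1.12, in its dimmer probe set) and Cox7a1 (1.11). Ndufb5 was lowest in sAg1 in both states, at 8.93 to 9.01 dormant and 8.39 to 8.60 activated, with the other clones at 9.53 or above dormant. The dormant count was 7 without dormant CD8bm1 replicate 4 and 16 without its replicate 3. Across the 10 groups the median range of members was 0.81, against 1.03 for bright probe sets.

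Members on 2 chromosomes were set against the other members in each clone. On chromosome 8 lie Cox4i1, Ndufb7 and Ndufa13. In sAg3 their median difference from the other clones was 0.42 dormant and 0.62 activated, against -0.01 and -0.02 for the other 106 members. The 275 other bright chromosome 8 probe sets had medians of 0.35 and 0.31 there. On chromosome 15 lie Cox6c, Ndufb9, Atp5g2 and Ndufa6, with 7 probe sets. In 8uvmo-3 their median difference was 0.14 dormant and 0.46 activated, against -0.14 and -0.04 for the rest, and 187 other bright probe sets of that chromosome had 0.27 and 0.33. CD8bm1 members on these chromosomes also differed from its others: dormant medians were 0.06 on chromosome 8 and 0.01 on chromosome 15 against 0.34, and activated ones -0.32 and -0.33 against 0.01. Other bright probe sets there had -0.11 and -0.08 dormant and -0.17 on both activated. Activated 8uvmo-3 had a median of -0.31 on chromosome 8. Dormant Cox6c in 8uvmo-3 was at 13.31, 13.38, 13.28 and 13.29, above all other dormant arrays, which reached 12.70. These are descriptions of medians chosen after the values were seen, and DNA copy number was not measured.

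**Figure D5:**
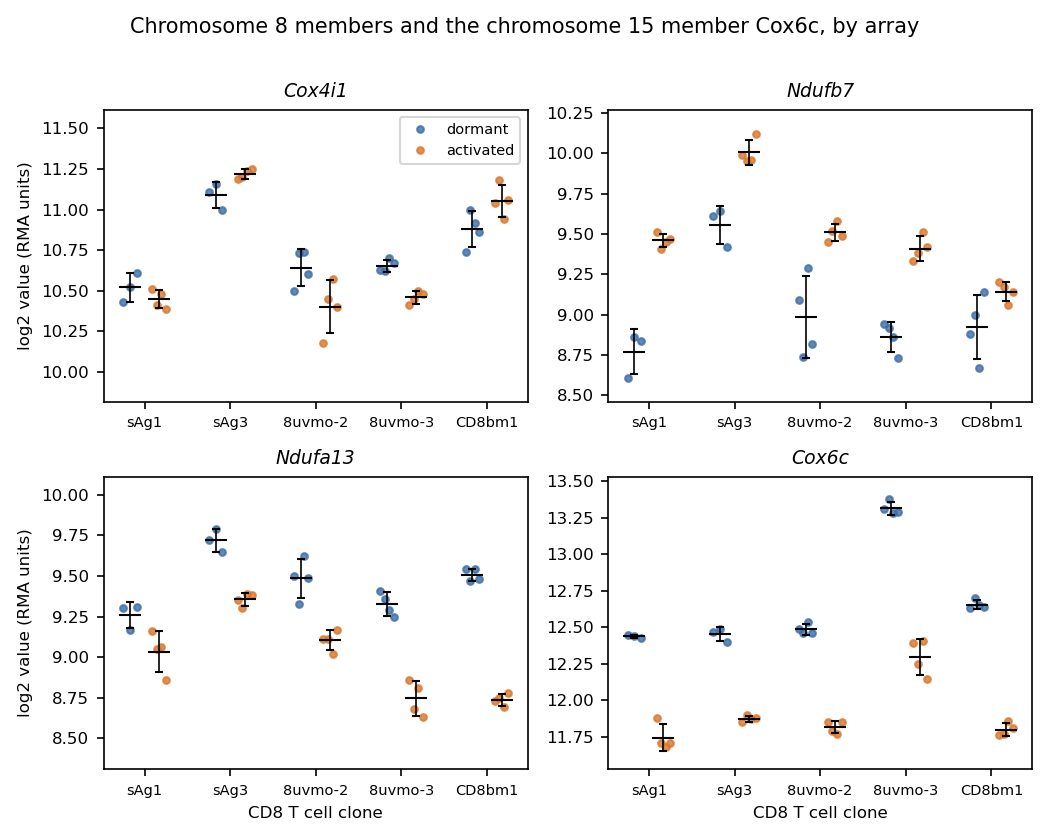
Log2 values by array for the 3 chromosome 8 members and for Cox6c on chromosome 15, by clone (dormant blue, activated orange). Bars are group means ± SD of 3 or 4 arrays, and y axes differ between panels. Within each state Cox4i1, Ndufb7 and Ndufa13 have their highest group mean in sAg3 and Cox6c in 8uvmo-3.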

How the data were processed

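The authors deposited 1 log2 value per probe set and array. Per the submitters' processing notes, RMA, which summarises probes robustly over arrays, and the program Partek were used, and no version or setting is stated there. Values ran from 1.81 to 14.76 with none missing, and 12146 rows without a gene name were not used. Symbols came from the platform annotation, and all 109 members matched the GRCm38.p6 gene table. Precision is limited by how many arrays each group has. Probe sets were fitted with limma 3.58.1 (R 4.3.3), with 1 mean per group over all 38 arrays and moderated variances with a mean trend. Errors of differences are SE and tests are two-sided. A call needed an adjusted p under 0.05, a log2 difference of at least 0.5 and a condition on clones. For activation over all clones, all 5 had to move the same way, and calls within 1 clone had no such condition. For phenotypes the clone means of both sides had to lie apart, and CD8bm1 had to lie outside the range of the other 4. Named members were the 5 called with the largest difference per direction and comparison, key subunits, tissue isoforms and the 6 widest ranges, and up to 3 genes of each other list; further genes, and the rule of all 3 scalings and the CD8bm1 difference in activation, were chosen after seeing the data. Members, lists and tests were chosen with earlier results of these data known. Replicate numbers pair same-numbered dormant and activated arrays at r from -0.236 to 0.268 over 18 pairs, all 4 above 0.1 only in 8uvmo-2. Alternatives changed the minimum, the scaling, the dim filter, the trend, the block and the arrays left out. The procedure was tested on simulated data.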

Additional observations from a re-analysis of the deposited data

Results flagged for a closer look

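Within groups of 4 arrays, 336 sets of values were examined for an array far from the other 3, and 19 were flagged (5.65%), about the 1 in 20 that chance gives. The median of all members was 10.64 in dormant 8uvmo-2 replicate 3 against 10.47 to 10.48 in the other arrays of the group. That array also lay apart for Cox6a1 (12.12, others up to 11.85) and Sdha (11.69, others from 11.83). Activated 8uvmo-2 replicate 1 lay apart for Atp5g1 (12.79, others up to 13.03), Cox6b1 (11.84, others 12.06 to 12.08), Ndufa6 (9.95, others up to 9.65) and Sdhc (10.88, others 10.77). In dormant CD8bm1, replicate 1 was low for Cox6a2 (6.99), replicate 3 for Ndufa4 (9.15, others 9.74 to 9.86) and Ndufb5 (10.43), and replicate 4 was high for Ndufs7 (11.62). In activated CD8bm1, replicate 1 stood out for Atp5c1 (11.69) and Ndufa6 (9.68) and replicate 3 for Sdha (11.46). Activated sAg3 replicate 4 stood out for Ndufa4 (9.14) and replicate 3 for Uqcrfs1 (9.13). The rest were Cox6b1 in dormant 8uvmo-3 replicate 1 (11.91), Cox6c in activated sAg1 replicate 1 (11.88) and Ndufv3 in activated 8uvmo-3 replicate 4 (9.56).

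Activation in CD8bm1 differed from the mean of the other 4 clones, by the test of the difference itself, for Ndufb6 (-0.85), Ndufa4 (-0.84), Ndufaf6 (-0.82), Sdhc (-0.78), Ndufs4 (-0.70) and Cox7a2l (0.59). Ndufaf6 is a member only through dormant CD8bm1, so its value supports nothing.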

How the results depend on the processing

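Over all alternatives, 3414 repeats for single named genes kept direction and side of the threshold and 88 lost the call, most of them with a minimum of 1 or after centring. Centring turned the median over members from 0.00 to -0.414 over all clones and below 0 in sAg1, sAg3, 8uvmo-2 and 8uvmo-3. Without a minimum difference, calls numbered 56 for activation over all clones, 76 in sAg1, 60 in sAg3, 83 for 8uvmo-2, 79 for 8uvmo-3 and 81 for CD8bm1. They numbered 35 for the dormant and 25 for the activated phenotypes, 71 for dormant and 33 for activated CD8bm1, 20 and 76 for the differences in activation by phenotype and for CD8bm1, and 102 and 89 among dormant and activated clones. Shares of all probe sets called without that minimum are not given here. With a minimum of 1 (2 for ranges) the counts were 4, 5, 2, 4, 6 and 2 for activation, 0 for the dormant phenotypes, 2 and 0 for dormant and activated CD8bm1, 0 for the CD8bm1 difference and 1 and 0 among clones. Centring gave 49 over all clones, 45 in sAg3, 46 for 8uvmo-2, 42 for 8uvmo-3, 80 for CD8bm1, 4 for the dormant phenotypes, 2 and 26 for the differences in activation and 19 among dormant clones. Members called lower were then 43.1% over all clones and 40.4%, 39.4%, 36.7% and 72.5% in sAg3, 8uvmo-2, 8uvmo-3 and CD8bm1. Bright probe sets gave 44.4%, 51.2%, 46.7%, 47.4% and 52.4% in that order, and all probe sets 20%, 22.1%, 23.1%, 24% and 24.9%. Of all probe sets, 6.1% were lower for the dormant phenotypes and 4.38% higher for their difference in activation. The CD8bm1 difference had 6.31% lower, and 21.1% were called among dormant clones. Quantile normalization left 1 for the dormant phenotypes, and clone means as replicates left 0. The replicate block, over all clones or within a clone, gave 1 for the phenotype difference in activation and changed no other count by over 1.5 times. Without dormant 8uvmo-2 replicates 1 and 3 that difference had 2. Leaving out Cox4i2 and Ndufaf6, an alternative chosen after seeing the data, moved no count by over 1.5 times.

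Leaving out 1 array at a time gave 15 to 18 calls for activation over all clones, and 27 to 35, 10 to 13, 26 to 35, 21 to 25 and 30 to 35 in sAg1, sAg3, 8uvmo-2, 8uvmo-3 and CD8bm1. The ranges were 1 to 3 and 0 to 1 for the phenotypes, 26 to 35 and 4 to 5 for CD8bm1, 0 to 1 and 12 to 25 for the differences in activation, and 7 to 16 and 3 to 4 among clones. The 1 call for the activated phenotypes came without activated 8uvmo-3 replicate 2.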
